A study of Mus musculus with 6 samples.

Results

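The genes described here are 36 genes of glycolysis and of the response to low oxygen, chosen by symbol and all found among the 35976 gene symbols of the count table. They comprise 3 transporters of glucose and lactate, 16 symbols for glycolytic enzymes, 3 enzymes that steer the use of glycolytic carbon, 4 genes of oxygen sensing and 10 genes known as targets of the hypoxia-inducible factors. Their levels were measured by sequencing polyadenylated RNA of mouse chondrocytes from the hind limb articular cartilage of embryos at day 18.5 (strain C57BL/6 x 129S4/SvJae). All cells were grown on tissue culture plastic for 16 population doublings with doxycycline at 2 µg/ml, which induced an H3.3 histone transgene. In the 3 H3K9M libraries (replicates 1, 3 and 5) its lysine 9 was replaced by methionine, and the genotype label gives H3K9 methylation as suppressed. In the 3 H3WT libraries (replicates 1, 2 and 4) it was wild-type H3.3, so both groups carried an induced transgene and both received doxycycline. The comparison asks which transcripts of expanded chondrocytes differed with the mutant histone. The labels do not say whether the libraries came from separate embryos, litters or cultures, so p-values measure only the spread between these libraries, which may be technical.

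Glycolysis splits glucose into pyruvate in the cytosol and yields ATP without oxygen, and lactate dehydrogenase turns the pyruvate into lactate when it is not burned in mitochondria. Cartilage has no blood vessels, and chondrocytes are known to live at low oxygen and to depend on glycolysis. When oxygen is low, prolyl hydroxylases no longer mark the hypoxia-inducible factor subunits for destruction, and these factors raise transcription of glycolytic enzymes, glucose transporters, angiogenic peptides and collagen prolyl hydroxylases through sites with the core letters ACGTG or GCGTG.

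Those core letters were searched on both strands in the 250 bases before the RefSeq start of each gene (GRCm38.p6), taking the start farthest upstream. On the opposite strand they read CACGT and CACGC, and the palindrome CACGTG counts as 2 overlapping matches. A promoter was found for 32 of the 36 genes, and 25 of these (78.1%) held at least 1 match, against 56.9% of 10171 tested genes and 38.6% of all 27025 genes with an entry. The letters were not in this window of Hk1, Gpi1, Aldoa, Tpi1, Pkm, Vegfa and Car12. No entry was found for Slc2a3, Eno1b, Epas1 and Ndrg1. Adm had the largest difference of any member toward lower levels in H3K9M. Pdk1, Bnip3 and P4ha1, like other members, were low together in the same libraries of both groups. The promoters of these 4 genes are printed for these reasons. They lie at chr7:110627407-110627656 (Adm, plus strand), chr2:71872974-71873223 (Pdk1, plus strand), chr7:138909520-138909756 (Bnip3, minus strand) and chr10:59323046-59323295 (P4ha1, plus strand). Capitals mark the matches, which number 2 in Adm, 1 in Pdk1, 5 in Bnip3 and 3 in P4ha1, and the 250 bases (237 for Bnip3) are written 5′ to 3′ on the strand of each gene.
Adm: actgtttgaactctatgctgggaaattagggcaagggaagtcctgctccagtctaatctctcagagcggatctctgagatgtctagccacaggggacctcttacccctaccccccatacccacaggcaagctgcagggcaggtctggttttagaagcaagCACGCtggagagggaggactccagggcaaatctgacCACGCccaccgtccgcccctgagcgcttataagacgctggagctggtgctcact
Pdk1: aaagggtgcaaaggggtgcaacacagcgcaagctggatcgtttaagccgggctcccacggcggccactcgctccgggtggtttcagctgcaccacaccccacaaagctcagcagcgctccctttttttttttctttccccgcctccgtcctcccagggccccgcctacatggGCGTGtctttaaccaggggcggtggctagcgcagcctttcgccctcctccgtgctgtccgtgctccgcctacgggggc
Bnip3: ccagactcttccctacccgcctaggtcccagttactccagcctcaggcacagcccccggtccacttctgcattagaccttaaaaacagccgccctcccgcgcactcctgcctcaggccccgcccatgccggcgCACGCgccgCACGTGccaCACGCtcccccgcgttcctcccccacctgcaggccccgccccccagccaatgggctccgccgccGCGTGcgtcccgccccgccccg
P4ha1: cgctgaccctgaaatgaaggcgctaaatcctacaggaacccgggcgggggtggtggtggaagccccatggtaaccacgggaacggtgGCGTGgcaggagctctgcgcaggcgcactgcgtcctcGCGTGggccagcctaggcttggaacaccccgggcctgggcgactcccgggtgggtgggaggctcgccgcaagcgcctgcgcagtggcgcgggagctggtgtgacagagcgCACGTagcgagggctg
A match of these letters is a description of the sequence and not a binding site measured here. Aldoa and Tpi1, without a match, were lowest in the same library of each group as Pdk1, Bnip3 and P4ha1. A relation between the letters and the levels was not tested.

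Total counts ran from 15113675 to 19606082 per library, and the 36 genes took 0.712% to 1.32% of them. Low-count genes were removed, which left 13761 for testing, all 36 among them. Levels are given in CPM, the count relative to library size, scaled by TMM, a method that corrects library size for the makeup of each library. All 13 chondrocyte markers were detected in both groups, with Col2a1 making up most of their sum (7406 to 11600 CPM in H3K9M and 7310 to 19360 CPM in H3WT). Of these 13, 12 had lower fitted levels in H3K9M (median log2 fold change -0.61), Col9a1 and Col9a2 with an unadjusted p under 0.05 by edgeR, and the groups overlapped for all 13. Endothelial markers summed to at most 2.28 CPM in any library, with Cdh5, Tie1, Emcn and Cldn5 at 0 throughout. Of 12 macrophage and blood markers 7 were at 0 in every library, Ptprc among them, while Cd68, Csf1r, Cd14 and Lyz2 were counted and tested. The sum of that list was 14.3, 22.9 and 11.4 CPM in H3K9M replicates 1, 3 and 5 and 9.71, 13.5 and 5.83 CPM in H3WT replicates 1, 2 and 4, and Cd68 reached 12.8 CPM in H3K9M replicate 3. Of 11 skeletal muscle markers 6 were tested and all 6 had higher fitted levels in H3K9M. For 4 of them, Myod1, Des, Myh3 and Tnnt3, the unadjusted p was under 0.05 by edgeR and every H3K9M library lay above every H3WT library. The sum of the muscle list overlapped between the groups, at 27.0 CPM in H3K9M replicate 5 and 32.0 CPM in H3WT replicate 1. Of 6 adipocyte markers 4 were tested and all 4 had lower fitted levels in H3K9M, 2 of them with groups that did not overlap. Of all genes tested, 6.42% were higher and 5.77% lower in H3K9M with an unadjusted p under 0.05 by edgeR. The groups did not overlap for 10.7% (higher) and 8.68% (lower). No marker of these lists had an adjusted p under 0.05, and the part of any of these lists in the differences of the 36 genes was not tested. Counts per gene do not show the codon for residue 9, so the genotype labels could not be checked from them.

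Only 3 of the 36 genes separated the groups, and the 36 were not tested as a set. Of the 36 genes, 26 had higher and 10 lower fitted levels in H3K9M, and of all 13761 genes tested 6827 and 6934. The median log2 fold change (H3K9M over H3WT) was 0.17 over the 36 against -0.003 over all genes tested. By edgeR's quasi-likelihood test, with Benjamini-Hochberg adjustment over the 13761 genes, none of the 36 had an adjusted p under 0.05, as did 0% of all genes (0 genes). At an unadjusted p under 0.05 there were 3 members, Eno1b and Ddit4 higher and Adm lower, where 12.2% of all genes lay under it (1677 genes; 6.42% higher and 5.77% lower). The same 3 were the only members whose 3 H3K9M values all lay on one side of the 3 H3WT values, a separation seen in 19.4% of all genes (10.7% higher and 8.68% lower). In both counts the members' share was below that of all genes. The DESeq2 Wald test called 2 members, Eno1b and Adm, among 365 genes (1.83%), and limma-voom called 0 members and 0 genes (0%). In the fit to every gene with a count edgeR called 1 member, Eno1b, among 36 genes (0.18%). For 21 of the 36 the standard error was larger than the log2 fold change itself.

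**Figure D1:**
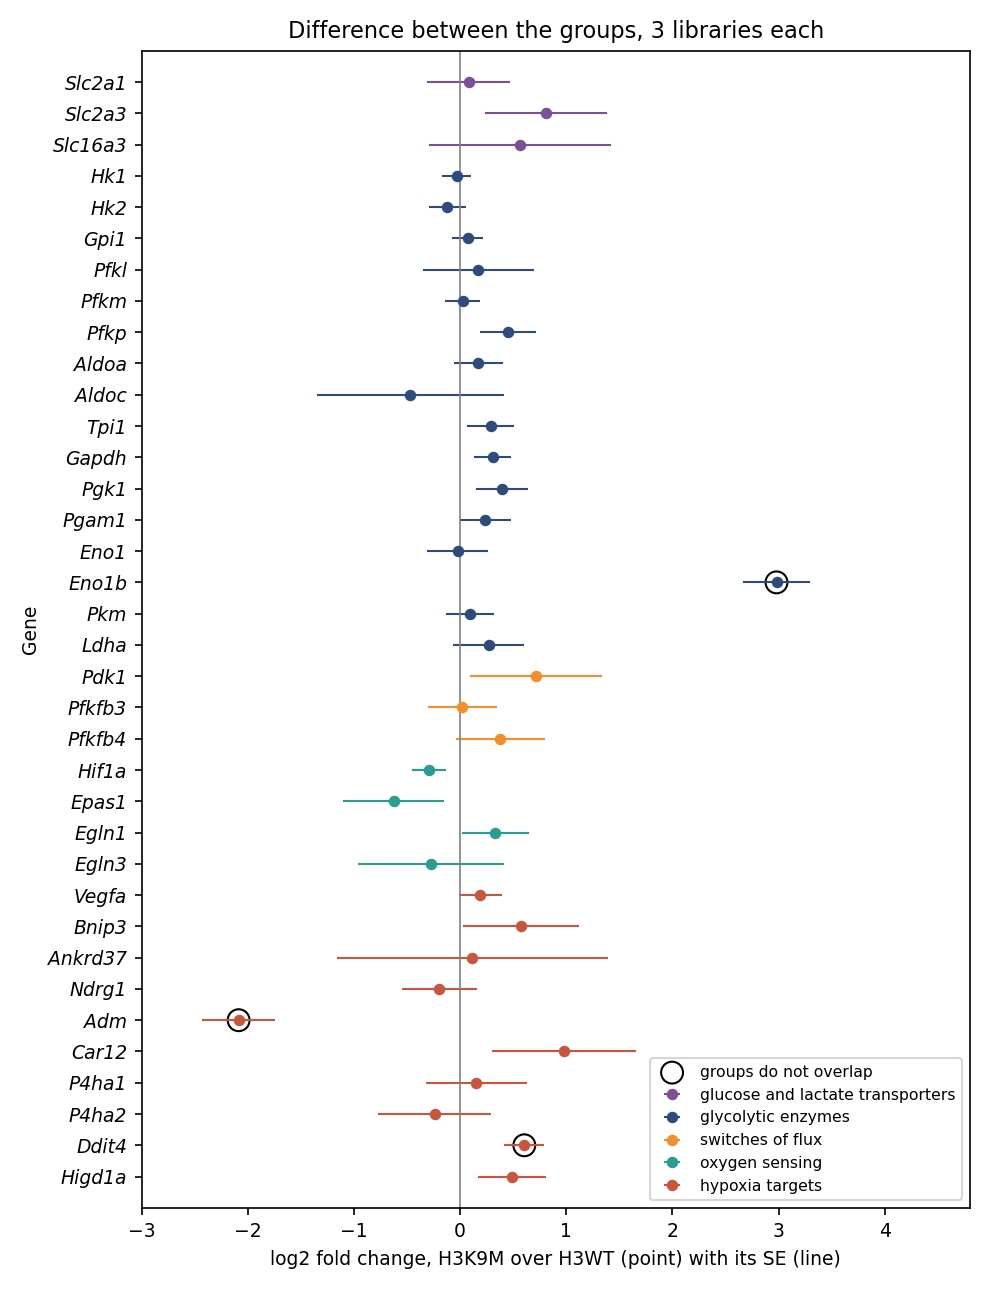
Log2 fold change of each of the 36 genes (x axis, H3K9M over H3WT; points with their standard error as lines), coloured by role, from 3 libraries a group. For 21 of the 36 genes the line crosses 0, and the circled Eno1b (2.98), Adm (-2.09) and Ddit4 (0.60) are those whose groups did not overlap.

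The libraries of the H3K9M group differed widely from each other, and they did so in the same direction for most of these genes. Within H3K9M, replicate 3 had the lowest level in 31 of 36 genes (86.1%, against 37.5% of all genes tested) and replicate 5 had the highest in 30 (83.3%, against 30.7%). For 17 genes (47.2%, against 3.44% of all genes tested) replicate 3 lay below every H3WT library and replicate 5 above every one. These 17 were Slc2a1, Slc16a3, Gpi1, Pfkl, Aldoa, Aldoc, Tpi1, Pgk1, Pgam1, Eno1, Pkm, Ldha, Pfkfb3, Ankrd37, Ndrg1, P4ha1 and Higd1a. They include a glucose and a lactate transporter, enzymes from Gpi1 to Ldha along the pathway, and 4 hypoxia targets. Within H3WT, replicate 2 had the lowest level in 21 of 36 genes (58.3%, against 39.8%). The pooled SD within groups (log2 CPM) had a median of 0.51 over the 36 genes and 0.30 over all genes tested, and 29 of the 36 were above the latter. Over the 6 libraries the median correlation between pairs of the 36 genes was 0.52 (Pearson's r of log2 CPM), against 0 over pairs of tested genes. It was 0.64 among the 16 glycolytic symbols and 0.42 among the 10 hypoxia targets. These correlations describe 6 shared libraries and include any difference between the groups.

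**Figure D2:**
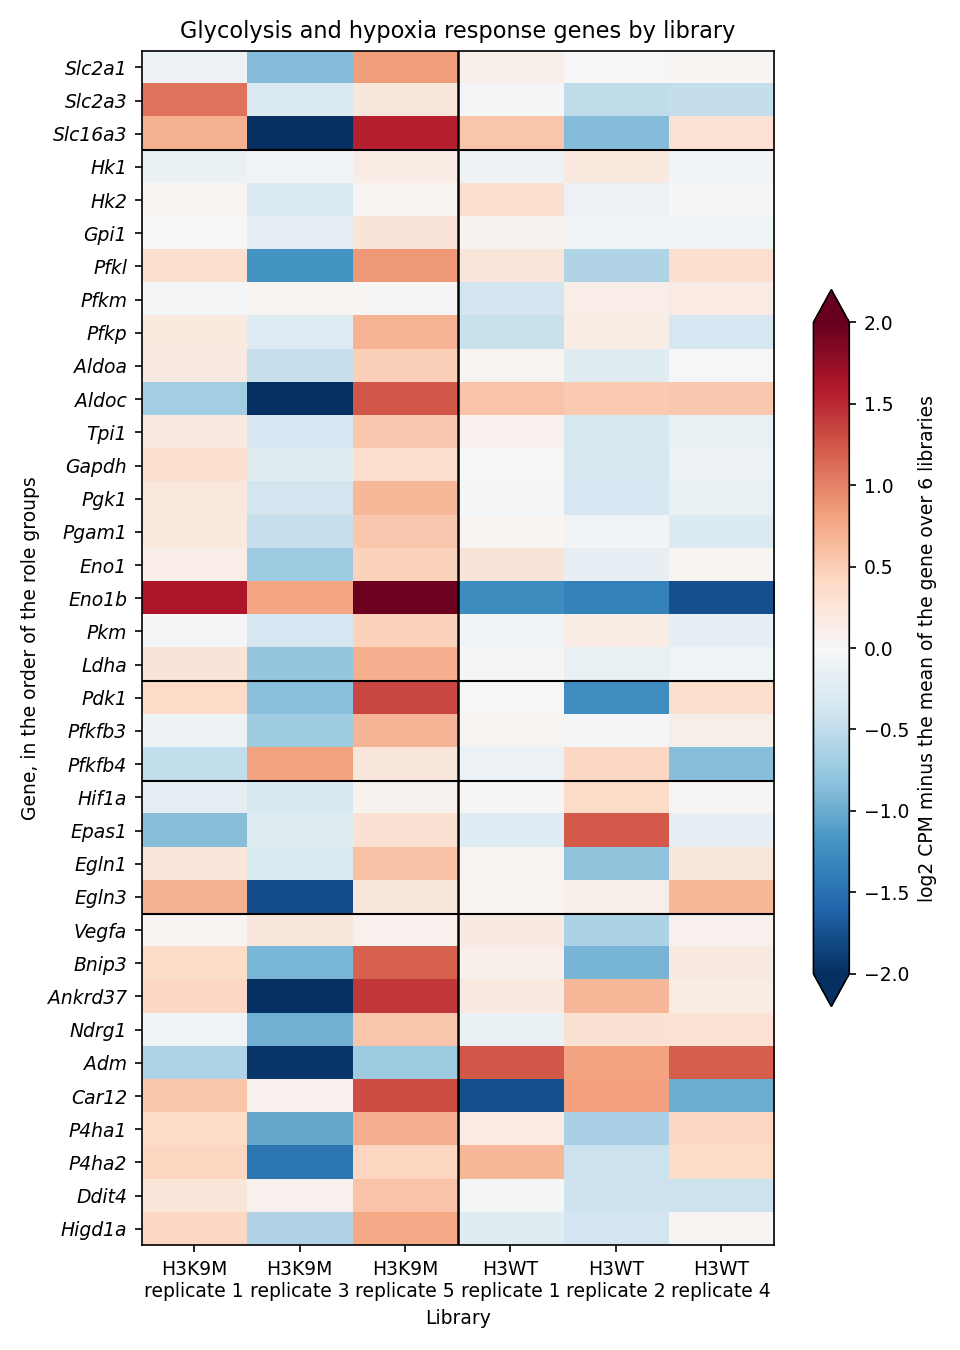
Level of each of the 36 genes (rows, grouped by role between the black lines) in each library (columns), as log2 CPM minus the mean of the gene over the 6 libraries. Most rows are blue in H3K9M replicate 3 and red in H3K9M replicate 5, while Eno1b and Adm change colour between the groups.

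By role, the median deviation of the hypoxia targets from each gene's mean (log2 scale) was 0.37, -0.93 and 0.65 in H3K9M replicates 1, 3 and 5. In H3WT replicates 1, 2 and 4 it was 0.13, -0.40 and 0.17. The glycolytic enzymes had the same low and high H3K9M libraries with smaller steps, at 0.18, -0.34 and 0.51 in H3K9M and 0.04, -0.14 and -0.09 in H3WT. The 4 oxygen sensing genes went different ways in H3WT replicate 2, at 0.39 for Hif1a, 1.22 for Epas1, -0.80 for Egln1 and 0.12 for Egln3. Over all genes tested the median lay between 0.002 and 0.02 in every library. Proliferation markers were also lowest in H3K9M replicate 3, with a sum over 10 genes of 921 CPM against 1643 and 1717 CPM in replicates 1 and 5, and 1839, 1783 and 1124 CPM in H3WT replicates 1, 2 and 4. Summed chondrocyte markers were 7406, 7852 and 11600 CPM in H3K9M replicates 1, 3 and 5, and in H3WT they were highest in replicate 2, at 19360 CPM. The part of either in the spread of these genes was not tested. In bulk RNA, fewer cells of a type and less RNA per cell cannot be told apart.

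**Figure D3:**
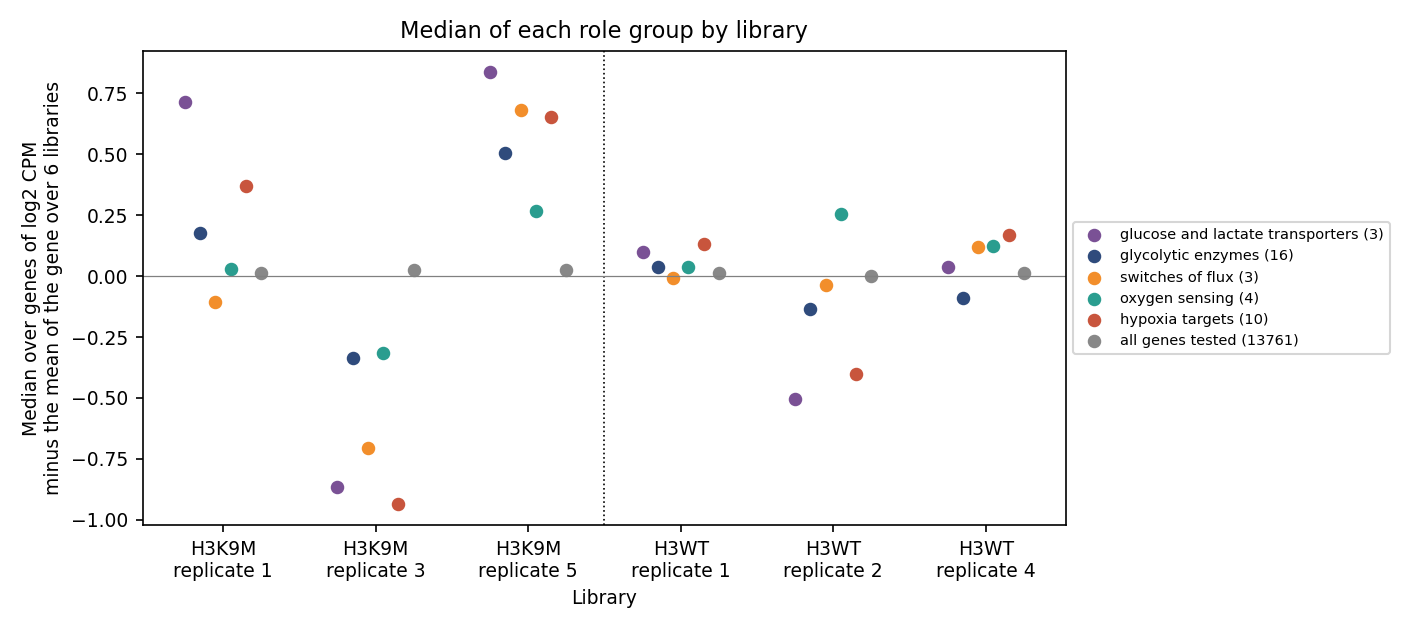
Median deviation of log2 CPM from the mean of each gene (y axis) for each role group and for all genes tested (colours, gene numbers in brackets) in each library (x axis). The role groups are at or above 0.27 in H3K9M replicate 5 and at or below -0.32 in H3K9M replicate 3, and the grey points of all genes stay near 0.

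The number of members with an unadjusted p under 0.05 and the median log2 fold change of the members depended on the library left out. Eno1b and Adm stayed under 0.05 by edgeR whichever library was left out. Without H3K9M replicate 3, 12 members had an unadjusted p under 0.05 (edgeR; 9.75% of all genes in that fit), and the median log2 fold change was 0.44. Of these 12, 11 were higher in H3K9M: Pfkp, Aldoa, Tpi1, Gapdh, Pgk1, Pgam1, Eno1b, Ldha, Bnip3, Ddit4 and Higd1a. Adm was lower, and Eno1b alone had an adjusted p under 0.05, as did 0.0141% of all genes. Without H3K9M replicate 5 only Eno1b and Adm remained under 0.05 (background 10.5%), and the median turned to -0.062. Without H3K9M replicate 1 there were 3 such members (background 8.48%). Without H3WT replicates 1, 2 or 4 there were 3, 5 and 3 (backgrounds 8.78%, 17.1% and 9.14%), and without replicate 2 Eno1b had an adjusted p under 0.05, as did 0.639% of all genes. The members whose groups did not overlap numbered 3, 16 and 7 without H3K9M replicates 1, 3 and 5 (backgrounds 26.8%, 28.9% and 29.4%) and 5, 5 and 3 without H3WT replicates 1, 2 and 4 (backgrounds 27%, 37.4% and 28.3%). Without both H3K9M replicate 3 and H3WT replicate 2, an alternative chosen after seeing the data, 14 members were under 0.05 (background 18.4%), and Eno1b, Adm and Car12 had an adjusted p under 0.05, as did 2.19% of all genes. The groups of 20 members then did not overlap (background 50.2%).

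No difference between the groups beyond their spread was detected for the transporters. Slc2a1 encodes GLUT1, the main glucose carrier of chondrocytes, and had 92.2, 54.1 and 176.3 CPM in H3K9M replicates 1, 3 and 5 against 105.7, 98.0 and 101.2 CPM in H3WT replicates 1, 2 and 4. The H3WT values lay within 1.08-fold of each other and inside the 3.26-fold range of H3K9M. Its log2 fold change was 0.081 (SE 0.39, edgeR's adjusted p 0.959). Slc16a3 encodes MCT4, which exports lactate, and had 126.8, 16.3 and 225.9 CPM in H3K9M and 113.1, 42.5 and 94.1 CPM in H3WT. Replicate 3 of H3K9M held 13.9-fold less than replicate 5, among the widest ranges of the 36 genes, and H3WT replicate 2 was the lowest of its own group. Slc2a3, for the glucose carrier GLUT3, was scarce, at 1.84 to 4.89 CPM in H3K9M and 1.56 to 2.19 CPM in H3WT.

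Among the enzymes, levels per kilobase of transcript (CPM divided by the longest GENCODE M21 transcript, mean of the 6 libraries) were highest for Pkm, pyruvate kinase, at 1139. Aldoa (aldolase) followed at 632, then Eno1 (enolase) at 523 and Ldha (lactate dehydrogenase) at 523. The latter 2 did not differ beyond their spread. Tpi1 (triose phosphate isomerase) was at 261, Pgk1 (phosphoglycerate kinase) at 193, Gpi1 (glucose-6-phosphate isomerase) at 151 and Pgam1 (phosphoglycerate mutase) at 119. The enzymes of the early, regulated steps were lower by this measure. It understates a gene whose expressed transcript is shorter than the longest one, which had 8681 bases for Pfkp and 3289 for Gapdh. Hk1 (hexokinase 1) was at 42.8, Pfkl at 40.0, Pfkm at 19.9, Pfkp at 8.62 (phosphofructokinase of the liver, muscle and platelet types) and Hk2 at 7.73, while the brain-type aldolase Aldoc was at 0.78. Gapdh was at 36.2, but its transcript is at least 90% identical over 200 or more bases to transcripts of 198 other annotated genes, so reads lost to or shared with these copies make its level uncertain. Such similar transcripts exist for 13 of the 36 genes, with 13 for Ldha, 9 for Pkm, 6 for Aldoa and 4 for Pgk1. Exons of 8 of the 36 overlap a gene on the opposite strand, and whether counting used strand is not stated.

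No enzyme other than Eno1b had an unadjusted p under 0.05. Ldha had 1085, 529.6 and 1497 CPM in H3K9M replicates 1, 3 and 5 and 921.1, 811.1 and 847.8 CPM in H3WT replicates 1, 2 and 4. Its H3K9M libraries lay on both sides of the narrow H3WT range, and the log2 fold change was 0.27 (SE 0.33, edgeR's adjusted p 0.8). Pgk1 had 393.2, 264 and 542.2 CPM against 332.4, 271.4 and 308.8 CPM, with a log2 fold change of 0.39 (SE 0.24, edgeR's adjusted p 0.549). The groups again overlapped, because H3K9M replicate 3 was the lowest of the 6 libraries. The steadiest enzymes were Hk1, with 165.6 to 200.9 CPM in H3K9M and 170.0 to 208.7 CPM in H3WT, and Gpi1, with 423.9 to 575.9 against 452.1 to 502.0 CPM. Pfkm, the muscle-type phosphofructokinase, was steady in H3K9M, at 56.1 to 59.4 CPM, but ran from 44.1 to 63.9 CPM in H3WT. Pfkl, the liver type, spanned 59.2 to 245.7 CPM in H3K9M and 89.1 to 171.3 CPM in H3WT. The remaining enzymes, Hk2, Pfkp, Aldoa, Aldoc, Tpi1, Gapdh, Pgam1, Eno1 and Pkm, had log2 fold changes from -0.47 (Aldoc) to 0.45 (Pfkp) with overlapping groups.

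Eno1b stood apart from the other enzymes. It had 177.8, 100.5 and 227.5 CPM in H3K9M replicates 1, 3 and 5 and 24.4, 22.6 and 17.1 CPM in H3WT replicates 1, 2 and 4, so every H3K9M library was above every H3WT library. The log2 fold change was 2.98 (SE 0.31, edgeR's adjusted p 0.142), or 7.89-fold, higher in 3 of 3 libraries. The adjusted p ranged from 6.83e-21 (DESeq2) to 0.486 over the alternatives. Eno1b is a gene whose transcript is a near copy of that of Eno1, at chr4:150236721-150248879 (GRCm38), which encodes the main enolase of most cells, so each symbol was also read as a share of their sum. The share of Eno1b was 13.7%, 13.9% and 13.9% in H3K9M, with 95% Wilson intervals of 13.2% to 14.2%, 13.4% to 14.5% and 13.5% to 14.3%. In H3WT it was 1.94%, 2.41% and 1.59%, with intervals of 1.77% to 2.13%, 2.19% to 2.64% and 1.42% to 1.78%. These intervals cover counting error only. The 3 H3K9M shares overlapped within counting error although the sum of both symbols ran from 720.8 CPM in replicate 3 to 1641 CPM in replicate 5. The mean shares were 13.8% ± 0.13 and 1.98% ± 0.41 (SD, n = 3 each), a difference of 11.9 percentage points (exact permutation test, two-sided p = 0.1, the smallest that 3 against 3 libraries can give).

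Summed into 1 gene, Eno1 and Eno1b had 1299, 720.8 and 1641 CPM in H3K9M and 1256, 939.6 and 1077 CPM in H3WT. The groups overlapped, and the log2 fold change of the sum was 0.16 (adjusted p 0.87, edgeR), against -0.024 for Eno1 alone. The total of enolase reads therefore followed the other glycolytic enzymes, with H3K9M replicate 3 lowest and replicate 5 highest, while the division between the symbols followed the group. How reads that match both genes were assigned is not stated, so the count of Eno1b is uncertain.

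**Figure D4:**
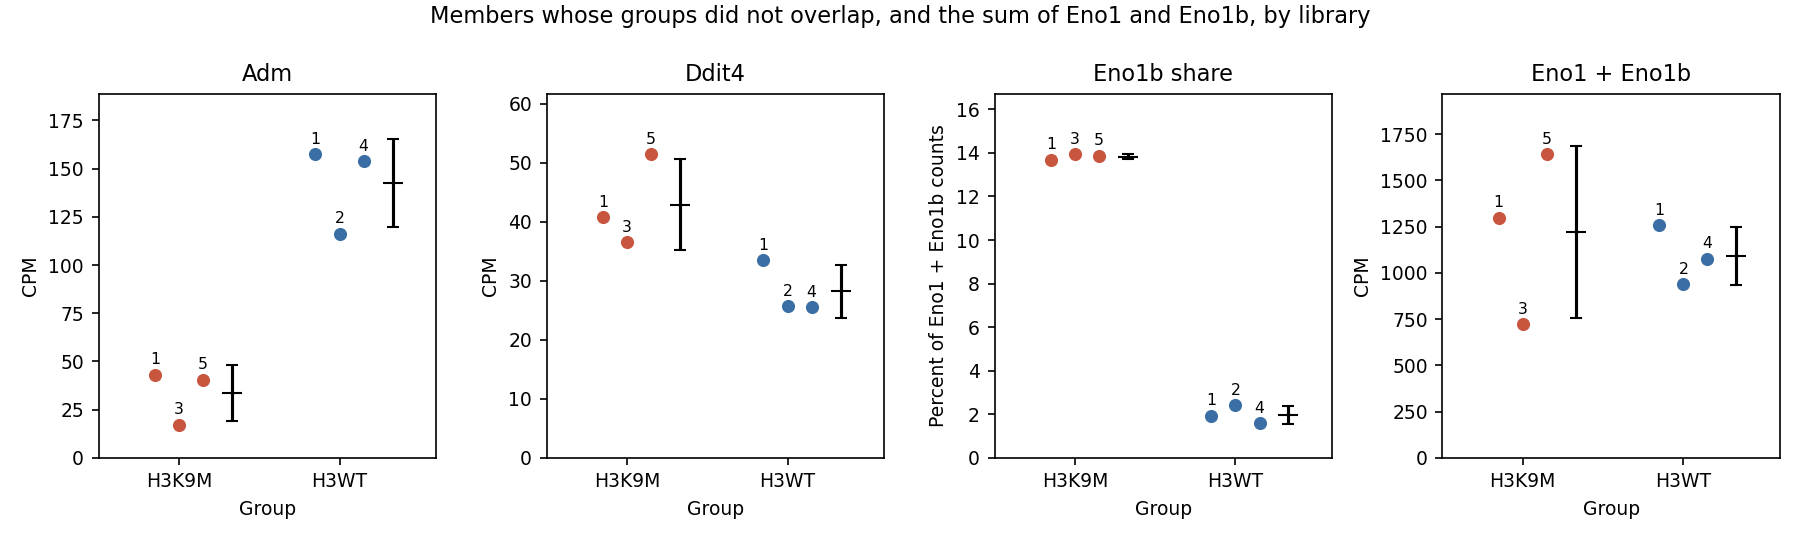
Levels of Adm and Ddit4 (CPM), the Eno1b share of the Eno1 and Eno1b counts (percent) and the CPM of both symbols summed, in each library (points labelled with the replicate number; bars are the mean and SD of 3 libraries). Adm, Ddit4 and the Eno1b share separate the groups, and the sum of Eno1 and Eno1b does not.

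The 3 enzymes that steer glycolytic carbon showed no separation of the groups. Pdk1, a kinase that inhibits pyruvate dehydrogenase and a classical hypoxia target, had 50.4, 21.3 and 96.7 CPM in H3K9M replicates 1, 3 and 5 and 37.9, 16.0 and 48.7 CPM in H3WT replicates 1, 2 and 4. Replicate 3 of H3K9M and replicate 2 of H3WT were the low libraries, as for Slc16a3. Its log2 fold change was 0.71 (SE 0.63, edgeR's adjusted p 0.696). Pfkfb3, whose product makes the sugar bisphosphate that activates phosphofructokinase, spanned 17.9 to 46.9 CPM in H3K9M and 28.5 to 31.8 CPM in H3WT. Pfkfb4, its relative, went the other way between libraries, with its highest value of 17.9 CPM in H3K9M replicate 3.

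Of the oxygen sensing genes, Hif1a encodes the oxygen-regulated subunit of hypoxia-inducible factor 1. It had 286.0, 260.6 and 343.2 CPM in H3K9M replicates 1, 3 and 5 and 331.8, 426.8 and 330.3 CPM in H3WT replicates 1, 2 and 4. Only H3K9M replicate 5 reached into the H3WT range, and the log2 fold change was -0.29 (SE 0.16, edgeR's adjusted p 0.492). Hif1a was highest in H3WT replicate 2, a library in which 21 of the 36 genes were at their H3WT minimum. This is the level of the mRNA, and the factor is known to be controlled mainly at the level of its protein. Epas1, which encodes the related HIF-2 alpha, was likewise highest in H3WT replicate 2, at 30.5 CPM against 7.17 to 16.1 CPM in the other libraries. The prolyl hydroxylases Egln1 and Egln3, which mark these factors for destruction and are themselves hypoxia targets, had log2 fold changes of 0.33 (SE 0.31) and -0.28 (SE 0.69). Egln1 was lowest in H3WT replicate 2 (41.3 CPM) and H3K9M replicate 3 (58.2 CPM), and Egln3 was scarce, with 13 to 66 counts per library.

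Among the hypoxia targets Adm had the largest difference. Adm, at chr7:110627661-110629820 (GRCm38, protein coding), encodes adrenomedullin, a secreted vasodilator peptide. It had 43.1, 17.2 and 40.6 CPM in H3K9M replicates 1, 3 and 5 against 157.5, 116.3 and 154.0 CPM in H3WT replicates 1, 2 and 4. The highest H3K9M library was below the lowest H3WT library by more than the whole range of either group. The mean was 33.6 ± 14.3 CPM against 142.6 ± 22.8 CPM (SD, n = 3 each), a log2 fold change of -2.09 (SE 0.34, edgeR's adjusted p 0.17), or 4.25-fold lower in 3 of 3 libraries. It ranked the 30th smallest p of 13761 genes. Over the fits that left out 1 library the log2 fold change ran from -2.30 to -1.76, and over the alternatives the adjusted p ran from 1.89e-08 (DESeq2) to 0.495. Within its group Adm was lowest in H3K9M replicate 3 and in H3WT replicate 2, but the 2 groups kept their separate levels. Of the 10 hypoxia targets, 9 were lowest of H3K9M in replicate 3 (37.5% of all genes tested). In H3WT replicate 2, 6 of the 10 were lowest of H3WT (39.8% of all genes tested), while Ankrd37, Ndrg1 and Car12 were highest there.

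Ddit4, at chr10:59949669-59951834 (GRCm38), encodes REDD1, a stress-induced inhibitor of mTORC1. It had 40.8, 36.5 and 51.5 CPM in H3K9M and 33.5, 25.7 and 25.5 CPM in H3WT, so the groups did not overlap, with the lowest H3K9M library just above the highest H3WT library. The log2 fold change was 0.60 (SE 0.19, edgeR's adjusted p 0.28; 1.52-fold, higher in 3 of 3 libraries), and the adjusted p ran from 0.14 to 0.54 over the alternatives. Without H3K9M replicate 5 its unadjusted p was 0.0553.

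The other 8 targets had overlapping groups. Vegfa, the main angiogenic growth factor, had 99.2, 112.1 and 102.0 CPM in H3K9M replicates 1, 3 and 5 and 109.6, 62.2 and 102.7 CPM in H3WT replicates 1, 2 and 4. It was even across H3K9M, including replicate 3, and only H3WT replicate 2 was low. Bnip3, a mitophagy receptor, had 55.9, 23.0 and 97.6 CPM against 46.6, 22.7 and 49.0 CPM. P4ha1, a catalytic subunit of the collagen prolyl 4-hydroxylase, had 353.9, 133.8 and 453.1 CPM against 305.2, 174.9 and 365.3 CPM. For both genes the low library of each group was the same as for Pdk1, and these are the promoters printed above beside that of Adm.

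P4ha2, the second catalytic subunit, spanned 54.8 to 204.3 CPM in H3K9M and 112.2 to 238.7 CPM in H3WT. Higd1a, a mitochondrial protein induced by hypoxia, spanned 30.5 to 79.2 against 35.4 to 47.5 CPM, and Ndrg1, a stress-response gene, 17.5 to 50.3 against 31.2 to 42.5 CPM. Car12, a carbonic anhydrase of the cell surface, had 8.24, 5.94 and 13.9 CPM in H3K9M replicates 1, 3 and 5 and 1.57, 9.91 and 2.77 CPM in H3WT replicates 1, 2 and 4. All 3 H3K9M values exceeded those of H3WT replicates 1 and 4, and H3WT replicate 2 lay among them. Its log2 fold change was 0.98 (SE 0.68, edgeR's adjusted p 0.605) and 2.12 without H3WT replicate 2 (adjusted p 0.109, with adjusted p from 0.0414 to 0.847 over the alternatives). Ankrd37, an ankyrin repeat gene, was near the limit of detection, with 14, 0 and 39 counts in H3K9M and 14, 22 and 13 counts in H3WT. The count of 0 allows up to 3 counts in that library.

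Further genes of both pathways were taken from lists of general knowledge. Of 36 other genes of glycolysis and pyruvate use, 29 were tested, and of 37 other symbols of hypoxia factors and targets, 34 were in the table and 32 were tested. In neither list did a gene have an adjusted p under 0.05. In each list 3 genes had an unadjusted p under 0.05 by edgeR (3 of 29 and 3 of 32), all higher in H3K9M. Of all genes tested, 12.2% lay under it in either direction and 6.42% in that direction. The median log2 fold change was 0.043 in the first list and 0.17 in the second.

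Eno3, the muscle enolase, had the smallest p of the first list. It had 20.1, 24.3 and 29.0 CPM in H3K9M replicates 1, 3 and 5 against 6.63, 11.0 and 6.78 CPM in H3WT replicates 1, 2 and 4 (SE 0.27 around a log2 fold change of 1.59, with an edgeR adjusted p of 0.17). The groups did not overlap. Skeletal muscle markers summed to 166.8, 235.3 and 27.0 CPM in the same H3K9M libraries and to 32.0, 14.8 and 27.6 CPM in H3WT, with Myf5 and Myh8 at 0 throughout. Most of the H3WT sum in replicates 1 and 4 was Acta1, at 26.2 and 24.0 CPM. Des, the muscle intermediate filament, had 81.0, 98.0 and 8.78 CPM in H3K9M and 4.88, 6.80 and 1.71 CPM in H3WT. Myod1, a regulator of muscle identity, had 19.5, 57.0 and 4.29 CPM against 0, 1.04 and 0 CPM. The groups were thus separated for 4 of the 6 tested muscle markers, where 10.7% of all genes tested were separated in that direction. Within H3K9M, Eno3 was highest in replicate 5, where the muscle sum was lowest and within the H3WT range. The part of these markers in the difference of Eno3 was not tested. Gbe1, the glycogen branching enzyme, had 26.7 ± 3.90 against 15.6 ± 3.23 CPM (SD, n = 3 each). Pgm2, of the phosphoglucomutase family, had 125.6 ± 27.1 against 92.1 ± 7.57 CPM. The smallest p-values in the other direction belonged to Pdp1, a pyruvate dehydrogenase phosphatase, the neuronal enolase Eno2 and the lactate dehydrogenase subunit Ldhb, with log2 fold changes of -0.47, -0.43 and -0.38.

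In the hypoxia list Bhlhe40, a transcriptional repressor induced by low oxygen, had 46.4, 73.0 and 59.5 CPM in H3K9M and 33.7, 34.5 and 33.8 CPM in H3WT (SE 0.18 around a log2 fold change of 0.81, with an edgeR adjusted p of 0.206). The groups did not overlap, and unlike most of the 36 genes it was highest in H3K9M replicate 3. Mxi1, a MYC antagonist, had 26.3 ± 2.26 against 16.3 ± 4.40 CPM, and Tceb2, the elongin B subunit of the ligase that destroys the factors, had 102.4 ± 8.31 against 82.2 ± 4.99 CPM. Lower in H3K9M, without an unadjusted p under 0.05, were Arnt, the constant partner subunit of the factors (log2 fold change -0.26), its relative Arnt2 (-1.02) and the secreted stanniocalcin Stc2 (-1.11). The groups did not overlap for Arnt, at 85.3 to 93.3 CPM in H3K9M and 99.7 to 116.9 CPM in H3WT. Such a separation toward lower levels was seen in 8.68% of all genes tested.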

How the data were processed

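Polyadenylated RNA was made into libraries with a Tecan Universal Plus mRNA kit, according to the labels' protocols. The authors deposited raw read counts per gene symbol, with no normalization. HISAT2, featureCounts, DESeq2 and build mm10 are named in the submitters' processing notes, and versions, annotation, strand and multi-mapping settings are not given in the sources used here. Each column matched 1 sample title, and 0 columns belonged to other samples.

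The test was edgeR 4.0.16 in R 4.3.3 (filterByExpr, TMM, robust quasi-likelihood fit of genotype to 6 libraries), with Benjamini-Hochberg adjustment across 13761 genes at 0.05. SE is the size of the log2 fold change over the square root of F. Log2 CPM had a prior count of 2. Alternatives were DESeq2 1.42.0, limma-voom (limma 3.58.1), DESeq2's size factors, library size alone, 2 other filters, a length and GC correction by loess (span 0.5), Eno1 and Eno1b summed, and each library left out. The fit was also run on simulated counts in which genes varied independently, without the shared differences between libraries described above.

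The members and lists were chosen with earlier results of these data known. All 36 members are named, and from each other list the 3 with the smallest p higher and lower. Values in every library are given for members with an unadjusted p under 0.05, for Slc2a1, Hif1a, Vegfa, Ldha and Pgk1, and for others chosen after their values were seen. Similar transcripts and lengths came from GENCODE M21, found for 26763 symbols and 94.3% of tested genes, and promoters from RefSeq (GRCm38.p6).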

Additional observations from a re-analysis of the deposited data

How the results depend on the processing

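No paired analysis was possible because the groups share only replicate number 1. The genes with an adjusted p under 0.05 numbered 0 in the reported fit, 36 with every gene that had a count, 365 with DESeq2 and 302 without both H3K9M replicate 3 and H3WT replicate 2 (added after the data were seen). Members among them numbered 0, 1 (Eno1b), 2 (Eno1b and Adm) and 3 (with Car12) in the same order. Leaving out each library in turn gave 0 to 91 genes and 0 to 1 member past the threshold, 2 to 12 members with an unadjusted p under 0.05, 3 to 16 members whose groups did not overlap, and a median log2 fold change of the members from -0.062 (without H3K9M replicate 5) to 0.44 (without H3K9M replicate 3). Without both libraries 14 members had an unadjusted p under 0.05, 20 had groups that did not overlap (50.2% of all genes) and the median was 0.35. The Eno1b share differed by 11.7 to 12.1 percentage points without 1 library, by 149.3 CPM against all counts, and by 3.01 as a log2 ratio to Eno1. The causes of these changes were not tested.

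Under every alternative run, 16 of the 36 genes kept the sign of their log2 fold change, Eno1b, Adm and Ddit4 among them. With library size alone the sign turned for Hk1 (0.018) and Eno1 (0.024). With the length and GC correction the sign turned for Hk1 (0.14), Hk2 (0.023), Eno1 (0.023) and Ankrd37 (-0.17). With limma-voom the sign turned for Slc2a1 (-0.086), Slc16a3 (-0.0061), Pfkl (-0.00015), Pfkfb3 (-0.092) and Ankrd37 (-1.50). With both enolase symbols summed the sign turned for Eno1 (0.16). Without both libraries the sign turned for Hk1 (0.094), Aldoc (0.044), Eno1 (0.16), Epas1 (0.069), Egln3 (0.11), Vegfa (-0.065) and Ndrg1 (0.21). Library size alone moved the median of all genes by 0.056, the largest such shift. Leaving out each library in turn turned the sign of 20 genes, whose log2 fold changes ran over these ranges: Slc2a1 (-0.47 to 0.41), Slc16a3 (-0.21 to 1.10), Hk1 (-0.11 to 0.072), Hk2 (-0.20 to 0.028), Gpi1 (-0.042 to 0.18), Pfkl (-0.29 to 0.58), Pfkm (-0.13 to 0.12), Aldoa (-0.042 to 0.40), Aldoc (-1.97 to 0.050), Eno1 (-0.29 to 0.26), Pkm (-0.15 to 0.27), Ldha (-0.082 to 0.60), Pfkfb3 (-0.42 to 0.31), Epas1 (-0.95 to 0.037), Egln3 (-0.79 to 0.20), Vegfa (-0.013 to 0.34), Ankrd37 (-0.95 to 0.71), Ndrg1 (-0.60 to 0.12), P4ha1 (-0.20 to 0.53), P4ha2 (-0.49 to 0.17). The causes of these reversals were not tested.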

Other observations

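Some other hypoxia targets outside the 36 genes, chosen after their values were seen, were also low in H3K9M replicate 3 and H3WT replicate 2. Others on the same list were not. Car9, a carbonic anhydrase known as a sensitive marker of hypoxia, had 19.96, 1.498 and 36.9 CPM in H3K9M replicates 1, 3 and 5 and 8.70, 0.882 and 18.0 CPM in H3WT replicates 1, 2 and 4. By edgeR the adjusted p was 0.789, at a log2 fold change of 1.09 (SE 1.27). Ak4, an adenylate kinase of mitochondria, had 32.7, 5.65 and 42.2 CPM against 15.9, 5.45 and 22.7 CPM. Lox, which encodes the collagen crosslinking enzyme lysyl oxidase, had 6332, 2553 and 5854 CPM against 7776, 3982 and 8599 CPM. In all 3 genes the lowest library of each group was the same, and the groups overlapped.

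Not every listed hypoxia target or gene near these pathways did so. Insig2 and Igfbp3, of the same hypoxia list, were highest of their group in these 2 libraries. Insig2 had 34.6, 41.2 and 37.4 CPM in H3K9M replicates 1, 3 and 5 and 28.1, 34.0 and 22.2 CPM in H3WT replicates 1, 2 and 4. Igfbp3 had 11.6, 18.4 and 2.65 CPM against 12.3, 14.6 and 9.49 CPM. The pyruvate dehydrogenase subunit gene Dlat had 93.4, 87.7 and 82.7 CPM in H3K9M and 90.2, 88.6 and 83.9 CPM in H3WT, and Hif1an, which encodes an asparaginyl hydroxylase that restrains the factors, had 61.9, 61.2 and 48.9 CPM against 54.8, 56.0 and 59.9 CPM.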
